A study of Mus musculus with 84 samples.

Results

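The suppressor of cytokine signalling (SOCS) family has 8 genes in the mouse, Socs1 to Socs7 and Cish, and all 8 were taken by gene name from the 55471 genes of the deposited count tables. They were followed in MMC9s, which are IL-9-producing mucosal mast cells of the small intestine, from BALB/c mice with ovalbumin (Ova) induced food allergy. Bulk RNA-seq compared 3 libraries, 1 for each genotype of MMC9: WT, IL-4RaY709F (labelled a gain of function mutant of the IL-4 receptor alpha chain) and IL-4Ra-/- (labelled a loss of function mutant). Bone marrow progenitors of each genotype had been given to WT mice sensitized to Ova, 7 oral Ova challenges followed at 3 per week, and every RNA was pooled from 12 to 20 biological replicates, so that the spread between animals cannot be seen. A separate set of 81 single WT MMC9s came from mice treated with Ova and alum, sorted by c-Kit+ and ST2+ staining from Lin- cells that were β7-integrin low, IL-17RB2- and IL-4GFP high. The hosts of the transferred progenitors were WT and kept WT cells of their own, and no source used here says how donor cells were separated from them.

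SOCS proteins are inhibitors of cytokine receptors that work through Janus kinases (JAKs) and STAT transcription factors. STATs switch on several SOCS genes, and the proteins then bind the receptor or the kinase through an SH2 domain, so the loop is a negative feedback. The SOCS box at the end of each protein binds elongins and a cullin ubiquitin ligase, which marks bound partners for degradation, and SOCS1 and SOCS3 also carry a kinase inhibitory region. In mast cells the family stands downstream of receptors for IL-4, IL-3, IL-9 and stem cell factor. In what follows, WT, IL-4RaY709F and IL-4Ra-/- values are given in that order.

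The windows before the start sites of the 3 members that differed most between the mutant libraries are shown because STATs and interferon regulatory factors (IRFs) act through short motifs there. Promoter windows were matched for 4 of the 8 members (Socs1, Socs3, Socs4 and Cish) in RefSeq, build GRCm38.p6, each from 250 bases before to 50 bases after the start. Both strands were searched for TTCNNNGAA (a STAT motif), TTCNNNNGAA (its form with a longer spacer, preferred by STAT6), TGANTCA (AP-1) and GAAANNGAAA (IRF), and capitals mark the matches. The 250 bases before the Socs1 start, chr16:10785537-10785786 on the minus strand, hold 2 overlapping GAAANNGAAA matches that begin at positions −83 and −77 relative to the start.
Socs1: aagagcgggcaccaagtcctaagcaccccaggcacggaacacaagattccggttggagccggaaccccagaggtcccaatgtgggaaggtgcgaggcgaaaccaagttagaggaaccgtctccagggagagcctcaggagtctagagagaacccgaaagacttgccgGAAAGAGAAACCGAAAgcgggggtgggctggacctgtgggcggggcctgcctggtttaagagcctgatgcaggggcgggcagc
The 250 bases before the Socs3 start, chr11:117969367-117969616 on the minus strand, hold 1 TTCNNNGAA match that begins at position −154 relative to the start. This RefSeq start lies 180 bases upstream of the start of the coding Socs3 transcript in the GENCODE annotation.
Socs3: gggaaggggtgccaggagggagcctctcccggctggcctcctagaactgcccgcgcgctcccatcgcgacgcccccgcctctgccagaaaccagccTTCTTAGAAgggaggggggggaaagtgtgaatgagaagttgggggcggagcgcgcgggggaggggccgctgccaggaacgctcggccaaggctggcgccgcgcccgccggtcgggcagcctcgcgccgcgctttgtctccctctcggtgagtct
The Cish window holds a pair of TTCNNNGAA matches, spaced by 11 bases, at the RefSeq start, chr9:107296654-107296683 on the plus strand.
Cish: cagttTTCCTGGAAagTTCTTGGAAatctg
In the GENCODE annotation the coding Cish transcripts begin elsewhere, at 107296026, 107296710 and 107296912 on chromosome 9, so the pair lies at none of these starts and downstream of the first.
Among all 32817 RefSeq windows of the same length, 8.29% hold TTCNNNGAA at least once and 0.457% hold it 2 or more times, while 3.43% hold GAAANNGAAA at least once and 0.222% hold it 2 or more times. The Socs4 window holds none of the 4 motifs. TTCNNNNGAA, present in 6.94% of all windows, and TGANTCA, present in 7.81%, are in none of the 4 member windows. A match describes letters in a window and not a bound site.

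The bulk libraries held 2299793, 2521791 and 2330628 reads in genes, and 3 reads, the limit that a count of 0 allows, stand for 1.18 to 1.31 CPM (reads scaled to a common library total). All 16 mast cell markers were read in all 3 libraries, with summed levels of 73961, 105108 and 69303 CPM, and each was detected in at least 5% of the single cells. Il4ra itself had 806, 1831 and 350 reads, so transcript of the targeted gene was still counted in the IL-4Ra-/- library. Reads assigned to a whole gene do not show which exons remain. Markers of other cells also differed. Summed CPM of 14 macrophage markers was 796, 748 and 1286 (188, 101 and 634 without Cx3cr1, which was detected in 68 of 80 single MMC9s), of 10 dendritic cell markers 305, 259 and 791, of 11 B or plasma cell markers 6580, 3029 and 13392, and of 20 epithelial markers 35, 37.4 and 123. In the IL-4Ra-/- library 9 of the 10 macrophage markers with enough reads passed the rule used below as higher than in WT, and no macrophage marker was at 0 in any library, although 7 of the 14 were detected in no single cell.

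Per length of transcript, Cish, which acts on STAT5-activating receptors, was the most abundant member in all 3 libraries, at 271, 373 and 157 TPM (reads per exon length, scaled to a common total). It took 42.6%, 41.4% and 42.3% of the TPM of the family, nearly the same share each time. In WT the order below it was Socs3 (135 TPM), Socs5 (69.2), Socs2 (68.1), Socs1 (41.2), Socs7 (27.4), Socs4 (19.6) and Socs6 (3.56). Socs5 and Socs2 are not separated in that order, since their 95% counting intervals of 61.8 to 77.3 and 62 to 74.5 TPM overlap, and neither are Socs7 (23.1 to 32.2) and Socs4 (15.9 to 24). The order of the other members was not the same in the mutants. Socs1 stood at rank 5 in WT, rank 3 in IL-4RaY709F with 96.6 TPM and rank 7 in IL-4Ra-/- with 11 TPM. Socs3 stood at rank 2, 2 and 4, with 135, 268 and 39.3 TPM, and its share of the family TPM was 21.3%, 29.7% and 10.6%. Socs2 moved from rank 4 to rank 2 in IL-4Ra-/- with TPM of 68.1, 65 and 65.8, where Socs3 and Socs5 were at 39.3 and 48.5 TPM. TPM was computed with the summed exon length of each gene, which for Socs2 (9531 bases) includes non-coding transcripts and so lowers its value. Cish (6419 bases) and Socs3 (2891 bases) also have non-coding transcripts in the GENCODE annotation. Their TPM, family shares and ranks carry the same limit. Summed over the 8 members, the family reached 1169, 1707 and 724 CPM.

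**Figure D1:**
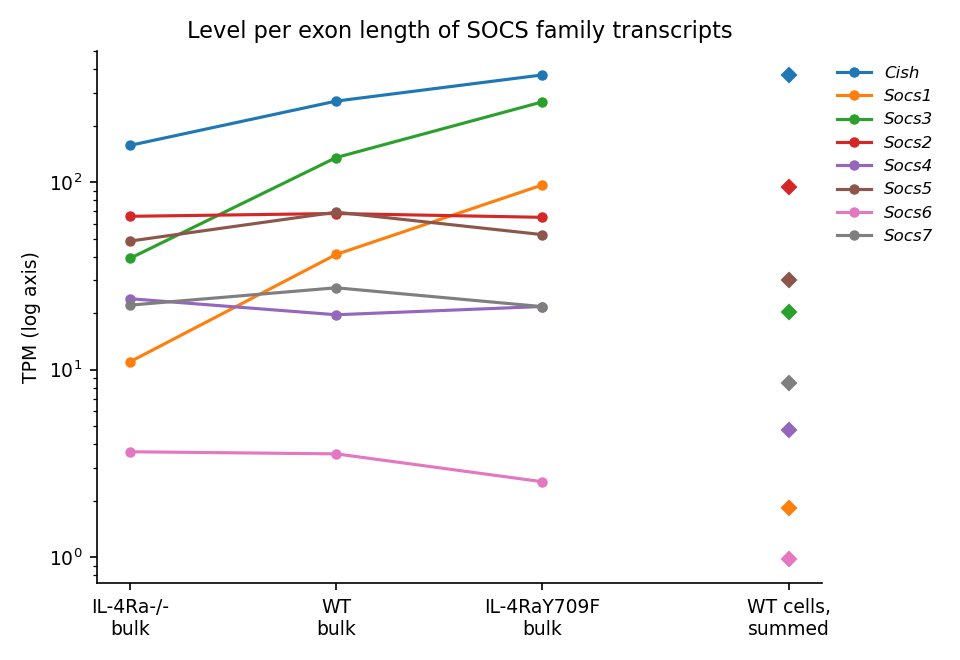
Level per transcript length (TPM) of the 8 SOCS family genes in the IL-4Ra-/-, WT and IL-4RaY709F bulk libraries and in the summed single WT cells, 1 line per gene. Cish leads in all 4 columns, while Socs1 climbs from rank 7 in IL-4Ra-/- to rank 3 in IL-4RaY709F.

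With 1 library per genotype there is no replicate check, so a ratio of scaled CPM is given with an exact conditional binomial 95% interval that covers counting error only. A gene was called higher or lower when it had 50 or more reads in the larger library, differed by 2-fold or more and had an interval without 1. Such a call compares libraries and not genotypes. Scaling used the trimmed mean of M-values (TMM), over all genes or, as an alternative chosen after seeing the data, over genes detected in at least 50% of the cells (the cell-based genes). Of the 8 members, 7 had enough reads, and Socs6, with 29, 24 and 31 reads, did not.

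The first comparison asks how the family differed when the IL-4 receptor carried the gain of function mutation. Socs1, which binds JAKs directly and restrains IL-4 and interferon receptors, had 86 reads in WT and 235 in IL-4RaY709F, or 37.6 and 101 CPM. That is a 2.69-fold higher level (interval 2.09 to 3.48). Socs3, best known as the inhibitor of receptors that contain gp130, had 281 and 648 reads, or 123 and 279 CPM, 2.27-fold higher (1.97 to 2.62). These were the 2 of 7 measured members called higher, where 1.68% of 5964 measured genes were called higher, and 0 of 7 were called lower, where 0.771% of genes were. Their log2 ratios, 1.43 and 1.18, lay above those of 99.3% and 99.0% of measured genes. Cish had 1248 and 2004 reads, 546 and 862 CPM, and its 1.58-fold ratio (1.47 to 1.69) missed the 2-fold rule although the interval excluded 1. It lay above 95.3% of genes. Socs2, the regulator of growth hormone signalling, was at 204 and 223 CPM with a log2 ratio of 0.13 (−0.06 to 0.31).

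The less studied members stood near their WT level in the IL-4RaY709F library. Socs4, which has been tied to regulation of the EGF receptor, had 97 and 125 reads (log2 ratio 0.34, −0.05 to 0.74). Socs5, also linked to the EGF receptor and to IL-4 receptor signalling, had 319 and 282 reads (−0.20, −0.44 to 0.03). Socs7 had 145 and 134 reads (−0.14, −0.49 to 0.21). All 3 intervals include 0, as does the wide interval of Socs6 (−0.30, −1.14 to 0.53), which had too few reads for the rule. With scaling by total reads the Socs5 interval is −0.55 to −0.075 and leaves out 0. The median log2 ratio of the 7 measured members was 0.34, beside 0.02 over all measured genes, whose quartiles were −0.18 and 0.23. Scaling by total reads lowers all log2 ratios of this comparison by 0.11 and turns 100 genes called higher and 46 lower into 71 and 69, with the same 2 members called higher.

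**Figure D2:**
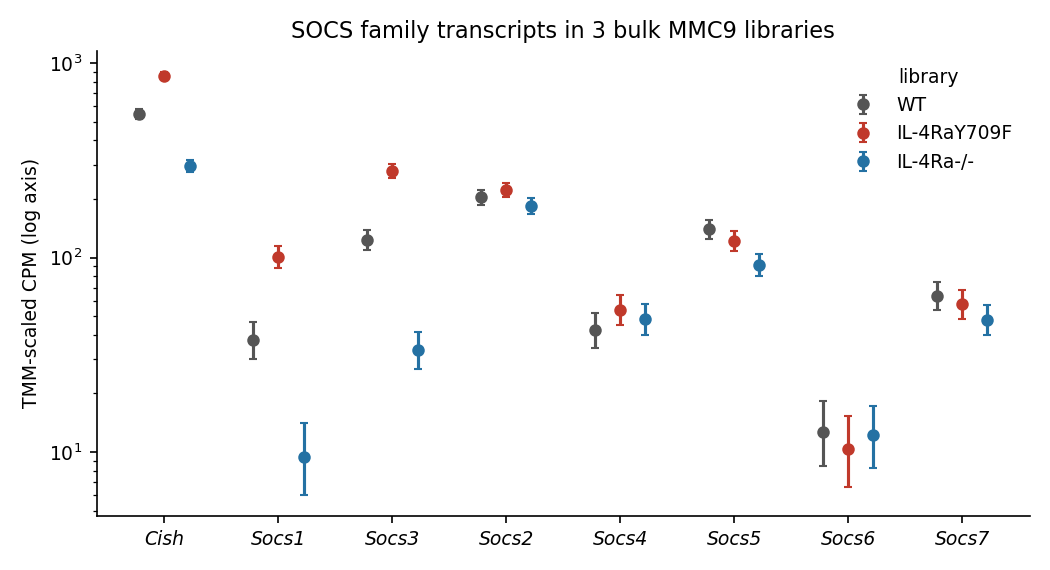
TMM-scaled CPM (log axis) of each member in the 3 bulk libraries, with bars for the exact Poisson 95% counting interval. The 3 points of Socs1, Socs3 and Cish do not overlap, with IL-4RaY709F highest and IL-4Ra-/- lowest.

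The second comparison asks what was lower when the receptor chain was lost. Socs1 had 86 reads in WT and 24 in IL-4Ra-/-, or 37.6 and 9.44 CPM, 3.99-fold lower (2.51 to 6.56). Socs3 had 281 and 85 reads, or 123 and 33.4 CPM, 3.68-fold lower (2.88 to 4.75). The same 2 members that were higher in IL-4RaY709F were thus lower here, against the same WT library. They were 2 of 7 measured members called lower, where 1.30% of 6246 measured genes were called lower, and 0 of 7 were called higher, where 2.43% were. Few genes lay lower: 0.0480% of genes had a smaller ratio than Socs1 and 0.0640% a smaller one than Socs3. Cish had 1248 and 755 reads, or 546 and 297 CPM, 1.84-fold lower (1.68 to 2.02), short of the 2-fold rule and at the 2.19 percentile of genes.

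Socs5 and Socs7 were also below WT in the IL-4Ra-/- library by ratios whose intervals exclude 1, without reaching 2-fold. Socs5 had 319 and 233 reads, a log2 ratio of −0.61 (−0.86 to −0.36), and Socs7 had 145 and 122 reads, a log2 ratio of −0.40 (−0.76 to −0.05). With scaling by total reads the Socs7 interval includes 0. Socs2, with 466 and 469 reads, had a log2 ratio of −0.14 (−0.33 to 0.04), and Socs4, with 97 and 123 reads, one of 0.19 (−0.21 to 0.59). The intervals of Socs2 and Socs4 include 0. The median of the 7 measured members was −0.61, beside −0.08 over all genes (quartiles −0.33 and 0.18). Scaling by total reads raises all log2 ratios by 0.13, with 207 genes higher and 45 lower in place of 152 and 81, and Socs1 and Socs3 are still called lower.

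Between the mutants the differences were larger and involved 1 more member. Socs1 was 10.7-fold higher in IL-4RaY709F than in IL-4Ra-/- (7.02 to 17), Socs3 8.34-fold (6.64 to 10.6) and Cish 2.90-fold (2.67 to 3.16). So 3 of 7 measured members were called higher, where 4.62% of 6319 genes were, and 0 of 7 were called lower, where 3.50% were. Socs2 (log2 ratio 0.27, 0.09 to 0.46) and Socs5 (0.40, 0.15 to 0.66) had intervals above 0 but ratios below 2-fold, and both intervals include 0 with scaling by total reads. Socs4 (0.15, −0.22 to 0.52) and Socs7 (0.26, −0.10 to 0.63) had intervals that include 0. Socs6 (−0.24, −1.07 to 0.58) had too few reads to be placed. Socs2, Socs4 and Socs7 change sign under other scalings, so no direction is given for them. The median was 0.40 over the 7 members and 0.09 over all genes, with quartiles of −0.21 and 0.39. With scaling by total reads, 145 genes were higher and 359 lower in place of 292 and 221, since every log2 ratio falls by 0.24, and the 3 members stay higher.

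**Figure D3:**
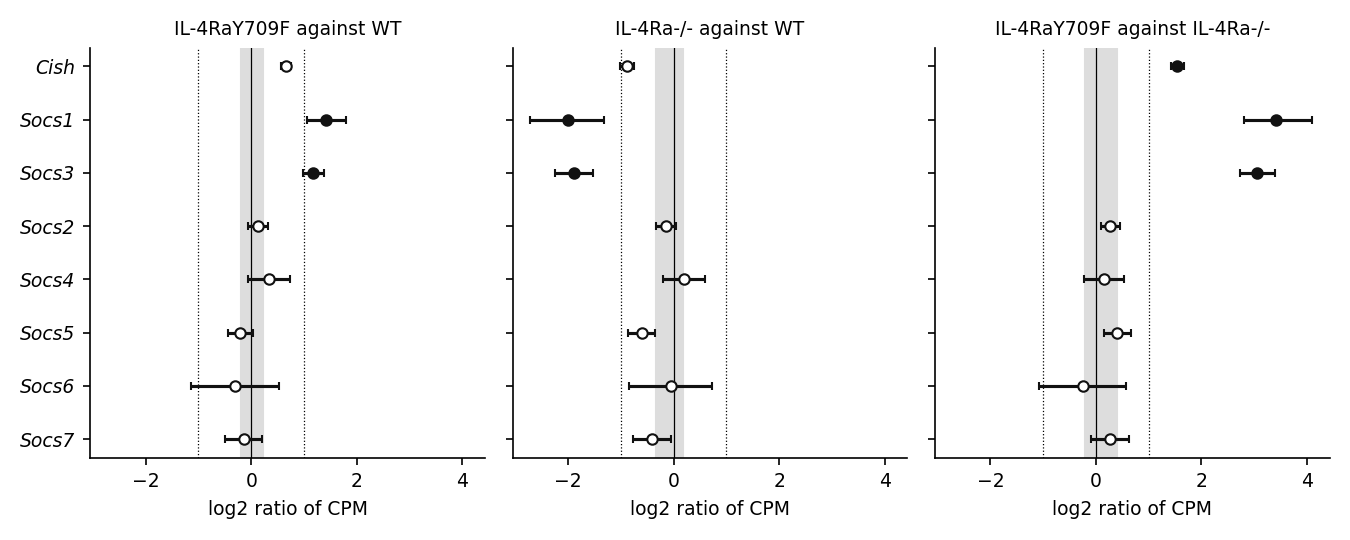
Log2 ratio of each member in the 3 library comparisons, with 95% counting intervals and dotted lines at 2-fold. By ratio, whatever the interval, Socs1 and Socs3 lie beyond the lines in all 3 comparisons and Cish between the mutants. The ratios of the other 5 members stay inside, but the Socs6 interval crosses a line in both comparisons with IL-4RaY709F.

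WT lay between the mutants, with IL-4Ra-/- lowest and IL-4RaY709F highest, for Socs1, Socs3 and Cish, with intervals against WT that exclude 0 on both sides. By CPM alone, whatever the interval, Socs2 ran in this order too, which makes 4 of 8 members beside 1776 of 6400 genes (27.8%). Both Socs2 intervals against WT include 0, and with TMM over the cell-based genes it leaves the order. The same WT library serves both comparisons, so they are not independent. The macrophage, dendritic cell, B or plasma cell and epithelial marker sums given above were highest in the IL-4Ra-/- library, where Socs1, Socs3 and Cish were lowest. With TMM over all genes, the mast cell marker sum ran in the same order as these 3 members (169032, 244459 and 176233 reads). Scaled by total reads or over the cell-based genes, WT had the lowest sum. The mast cell list had a median log2 ratio of 0.41 in IL-4RaY709F and −0.16 in IL-4Ra-/-. The second of these is 0.014 with TMM over the cell-based genes. Summed CPM of 12 stromal or endothelial markers was 240, 383 and 226, the order of Socs1 and Socs3, which is lost with scaling by total reads. Pecam1, detected in 45 of 80 single cells, gave 498, 863 and 501 of these reads. The T cell marker sum did not run in this order (162, 203 and 283 CPM). Summed CPM of 12 markers of type 2 innate lymphoid cells ran in the same order as Socs1 and Socs3 (115, 219 and 81.8 CPM). Within that list Il2ra had 81, 249 and 38 reads, Il7r 110, 161 and 80, and Il17rb 41, 74 and 15, and these 3 genes, the only ones of the list with enough reads, were called higher in IL-4RaY709F than in IL-4Ra-/-, a call that Il7r loses with scaling by total reads. They were detected in 5, 19 and 6 single cells. Il5 was at 0 in all 3 libraries, Areg and Arg1 were at 0 in IL-4RaY709F, and Gata3 had 4, 5 and 5 reads. The part of these other cells in the SOCS results was not tested. In bulk RNA, fewer expressing cells and less RNA per cell cannot be told apart.

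**Figure D4:**
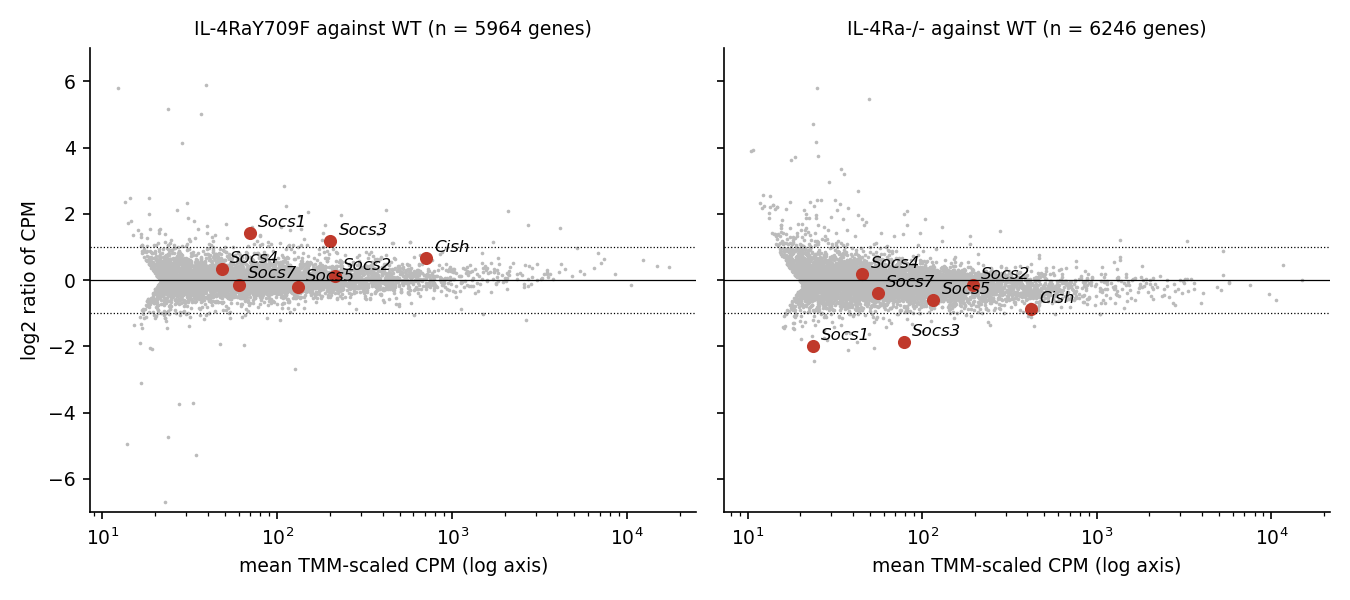
Log2 ratio against mean CPM (log axis) for all measured genes (grey) and the 7 measured members (red) in the 2 comparisons with WT, with dotted lines at 2-fold. Socs1 and Socs3 sit at the upper edge of the cloud in IL-4RaY709F and at the lower edge in IL-4Ra-/-.

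Genes whose 3 bulk libraries split their level most like a member were found by the distance between percent shares, over 4467 genes with at least 100 reads in 1 library. The shares of Socs1 were 25.4%, 68.2% and 6.37%, and its nearest genes were the protease gene Prss34 (distance 1.85 percentage points), the transcription factor genes Batf (3.12) and Nfil3 (3.84) and Il2ra (4.26). The shares of Socs3 were 28.3%, 64.1% and 7.68%, and its nearest were Nfil3 (1.65), Prss34 (3.61), the mutated gene Il4ra itself (3.98) and Ldlrad4 (4.53). The shares of Cish were flatter, 32%, 50.5% and 17.4%, nearest to Il10ra (0.765), S1pr3 (0.766), Otulin (0.973) and Ebi3 (1.47). With 3 libraries and shares that sum to 100%, such likeness has few degrees of freedom. Prss34 is also 1 of the 6 basophil markers, whose summed CPM was 2145, 2482 and 2385. It was the 1 of 4 measured markers of that list called against WT, higher in IL-4RaY709F and lower in IL-4Ra-/-. Prss34 was detected in 12 of the 80 single WT cells. The part of basophils in this likeness was not tested.

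Upstream of the family, the receptor gene Il4ra ran with Socs1 and Socs3, at 353, 787 and 138 CPM (log2 ratios to WT of 1.16 and −1.36). The transducer Stat6, which the IL-4 receptor activates, did not, at 410, 364 and 308 CPM (−0.17 and −0.41). Among 32 cytokine receptor genes, 3 of 18 measured were higher in IL-4RaY709F, Il2ra (log2 ratio 1.59), the gp130 gene Il6st (1.54) and Il4ra. In IL-4Ra-/- 3 of 16 were lower than WT, Il4ra, Il2ra (−1.25) and the TSLP receptor gene Crlf2 (−1.03), and scaling by total reads leaves 2, without Crlf2. Among 16 ligand genes, 4 of 7 measured were higher in IL-4RaY709F, namely Il9 (2.46), Il10 (2.33), Il6 (1.14) and Il13 (1.12). In IL-4Ra-/- 1 of 6 was higher, Csf2 (1.22). The Il9 ratio rests on 13 reads in WT and 73 in IL-4RaY709F (interval 1.60 to 3.44), that of Il10 on 23 and 118 (1.68 to 3.05). Of the 80 single WT cells, Il9 was detected in 1, Il10 in 9, Il6 in 56 and Il13 in 12. Il6st was detected in 1. Of the 11 JAK and STAT genes, Jak1 was called higher in IL-4RaY709F (1.15) and 0 of 11 passed in IL-4Ra-/-, where all 11 log2 ratios were below 0 with a median of −0.42. The shares over all measured genes were 1.68% higher in IL-4RaY709F, and 1.30% lower and 2.43% higher in IL-4Ra-/-. The lists were chosen with earlier results of these data known, so the counts describe them and are no test. Il4ra is itself the gene altered in both mutants, and whether its ratios come from the alteration itself was not tested.

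Genes that STATs induce were called in both comparisons with WT. Of 21 measured, 7 were higher in IL-4RaY709F and 0 lower, led by the transcription factor gene Irf4 (log2 ratio 1.97), the survival kinase gene Pim2 (1.93), Batf (1.60) and Il2ra (1.59), and 6 were lower in IL-4Ra-/- and 0 higher, led by Nfil3 (−2.05), Pim2 (−1.61), Batf (−1.55) and Il4ra (−1.36). With total reads 6 and 5 passed. The list median was 0.39 and −0.62, beside 0.34 and −0.61 for the SOCS members. These 2 SOCS medians are the ratios of different members, Socs4 and Socs5, and Socs5 was at −0.20 in IL-4RaY709F. Over all measured genes, 1.68% were called higher in IL-4RaY709F and 1.30% lower in IL-4Ra-/-. This list was also chosen with earlier results of these data known, so its counts are a description and no test. Il2ra and Il4ra stand in this list and in the receptor list. Il4ra is the gene altered in both mutants, so its calls cannot be told apart from a direct effect of the alteration.

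The machinery around the SOCS proteins is covered by short lists, for which 0 calls lie near the background shares given above. Of 13 measured elongin, cullin and RING genes that serve the SOCS box, 0 were called in any of the 3 comparisons. The elongin gene Elob had 90, 114 and 86 reads and the cullin gene Cul5 104, 105 and 121. Of 27 other genes for proteins with a SOCS box, 5 or fewer were measured and 0 were called. Wsb1 had 406, 458 and 461 reads. Among 16 measured genes of other brakes on cytokine receptors, 0 were called against WT in either mutant. The phosphatase gene Ptpn2 had 203, 373 and 265 reads, a log2 ratio of 0.85 in IL-4RaY709F, and Ptpn6 had 716, 613 and 626. Between the mutants Ptpn1, the gene of a JAK phosphatase, was higher in IL-4RaY709F (1.05), a call that scaling by total reads removes. Of the interferon-induced genes, which IRFs and STATs switch on, Igtp was the 1 of 8 called higher in IL-4RaY709F (1.05), lost under total reads, and 0 of 9 were called in IL-4Ra-/- against WT, where TMM over the cell-based genes calls Igtp higher. Between the mutants Gbp3 was the 1 of 9 called, lower in IL-4RaY709F (−1.06) under each of the 4 scalings. Elob, Cul5, Wsb1, Ptpn2 and Ptpn6 were named after their values were seen.

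Single cells showed which members individual WT MMC9s expressed. Of 81 cells, 80 had at least 10000 gene reads and were kept, with 163596 to 2210211 reads and a median of 1209300. No animal is named for them, so they are 1 sample, and intervals are exact binomial 95% intervals over cells. At 10 reads or more, Cish was detected in 67 of 80 cells (83.75%, interval 73.8% to 91.1%) and Socs2 in 56 (70%, 58.7% to 79.7%). Socs5 followed in 18 cells (22.5%, 13.9% to 33.2%), Socs4 in 10 (12.5%, 6.16% to 21.8%) and Socs3 in 8 (10%, 4.42% to 18.8%). Socs6 and Socs7 were each detected in 4 cells (5.0%, 1.38% to 12.3%), and Socs1 in 3 (3.75%, 0.780% to 10.6%). Detection thus fell into a common pair, Cish and Socs2, and 6 members found in 22.5% of cells or fewer. For the signalling genes above them, Il4ra was detected in 31 cells (38.75%) and Stat6 in 44 (55%).

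The amount per cell varied widely. Cish had a median of 654 CPM over the 80 cells and reached 3112 CPM, and 2 cells had 0 Cish reads. Socs2 had a median of 117 CPM and reached 2715 CPM. The 3 cells with Socs1 held 9.20, 26.6 and 87.2 CPM, from 11, 25 and 128 reads, and 1 of them held 68.8% of all Socs1 reads. Among the 8 Socs3 cells the reads were 15, 31, 94, 191, 230, 342, 498 and 632, with a median of 177 CPM and a maximum of 518. The top 5 cells held 92.8% of all Socs3 reads and 22.3% of all Cish reads, so Cish was spread over cells and Socs3 was held by few. Socs5 reached 2528 CPM, Socs7 976, Socs4 187 and Socs6 103.

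**Figure D5:**
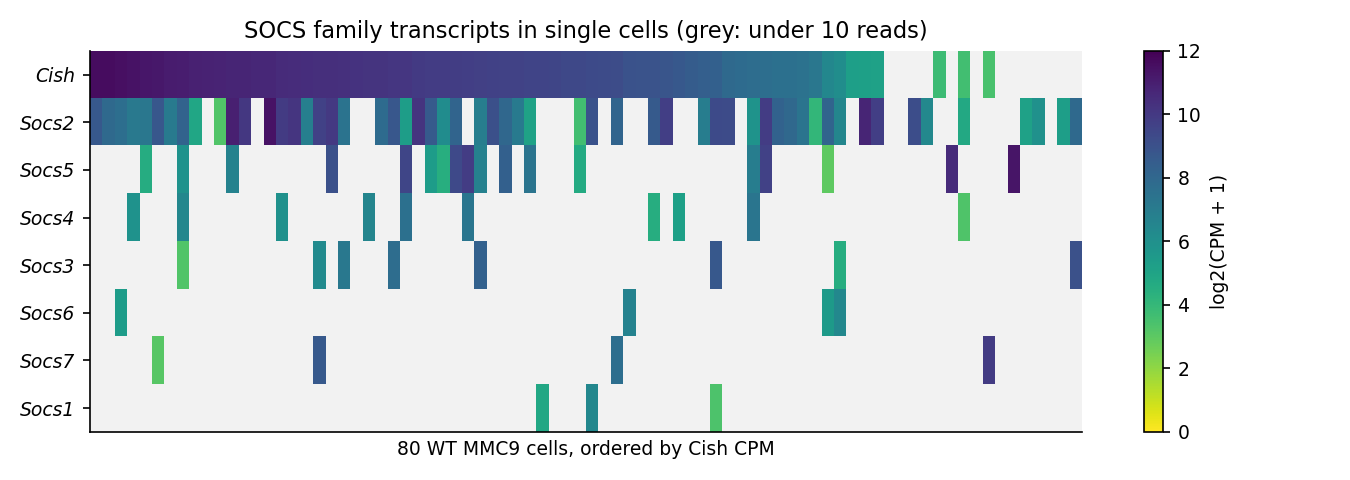
CPM of each member in the 80 kept WT cells, on a log2(CPM + 1) scale, with entries under 10 reads in grey. Cish fills most cells (67 of 80) and Socs2 follows (56), while Socs1 is grey in all but 3.

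The number of members per cell ranged from 0 to 5. No member was detected in 5 cells, 1 member in 18, 2 in 28, 3 in 21, 4 in 7 and 5 in 1. Cish and Socs2 were both detected in 50 cells, Cish without Socs2 in 17, Socs2 without Cish in 6 and neither in 7. Their levels had a Spearman rho of 0.31 over the 80 cells, which share differences in depth. All 3 Socs1 cells and all 10 Socs4 cells had Cish, and of the 8 Socs3 cells all had Socs2 and 7 had Cish, beside 83.75% of all cells with Cish and 70% with Socs2. Socs1 and Socs3 met in 1 cell, with 11 and 498 reads. With 3 and 8 cells, the overlap of these pairs says little. The 13 cells without Cish had a median of 416131 reads and 1039 genes detected, and the 67 with Cish 1325520 reads and 2673 genes. At least 500000 reads were present in 6 of the 13. Thinned to 150000 reads each, 60 of 80 cells had Cish, 46 Socs2, 13 Socs5, 6 Socs4, 6 Socs3, 3 Socs7, 2 Socs6 and 1 Socs1.

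Among 6136 genes detected in at least 10 of the 80 cells, 54 had a Spearman rho of 0.4 or more with Cish, 31 with Socs2, 4 with Socs4 and 1 with Socs5. Cish was nearest to Rassf5 (0.56), the SRC kinase gene Lyn (0.55) and the chemokine gene Ccl4 (0.55). Socs2 was nearest to Mettl6 (0.49), Rer1 (0.47) and Ttc28 (0.47), Socs4 to Pdk3 (0.47), Hmga1 (0.46) and Abhd17c (0.45), and Socs5 to Ppp6c (0.42). Depth is shared by all points: the number of genes detected had a rho of 0.41 with Socs2 and 0.19 with Cish. These genes are the highest of 6136 for each member, and how many would reach 0.4 without a link was not tested. Socs4 had 0 reads in 61 of the 80 cells, and Pdk3 and Hmga1 were each detected in 11. The Socs4 values thus rest on few cells.

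The summed single cells held less Socs1 and Socs3 than the WT bulk library. Socs1 was at 37.4 CPM in bulk and 2.0 in the summed cells, a log2 difference of −3.68 on the log2(CPM + 1) scale, and at 0.632 CPM without its top cell. Socs3 was at 122 and 21.9 CPM (−2.43). Over 5623 genes the median difference was −0.41, with quartiles of −1.44 and 0.44, and 3.88% and 11.1% of genes lay below Socs1 and Socs3. Cish (543 and 890 CPM, 0.71) and Socs2 (203 and 335 CPM, 0.72) lay the other way, above 82.8% and 83.0% of genes. Socs5 (−0.94), Socs4 (−1.70), Socs6 (−1.40) and Socs7 (−1.40) were lower in the cells than in bulk. The single cells and the bulk library differ in the mouse model, the sort and the library preparation, whose parts in this difference cannot be told apart.

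In the genome (GRCm38) the members lie on 7 chromosomes. Socs1 (ENSMUSG00000038037) spans chr16:10782240-10785536, Socs2 (ENSMUSG00000020027) chr10:95385362-95417180, Socs3 (ENSMUSG00000053113) chr11:117966079-117970047 and Socs7 (ENSMUSG00000038485) chr11:97362435-97398542. Socs4 (ENSMUSG00000048379) spans chr14:47276931-47296102, Socs5 (ENSMUSG00000037104) chr17:87107679-87137839 and Cish (ENSMUSG00000032578) chr9:107296026-107302784. Socs6 (ENSMUSG00000056153) is on chromosome 18. Cish shares 261 exon bases with the antisense gene Gm17040, which had 0, 1 and 0 reads in bulk, beside 1248, 2004 and 755 for Cish, and 479 with the antisense gene Gm17041, which had 0. No source used here says whether counting used strand, so reads of Cish and these genes could not be separated there.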

How the data were processed

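Bulk RNA came from 3 libraries of pooled MMC9s and single-cell RNA from 81 WT cells. A column kit was used to isolate the RNA and Illumina kits to make the libraries, per the labels. Per the submitters' processing notes, HISAT and featureCounts of Subread 2.0.0 were used. The authors deposited whole-number counts of reads per gene, with no normalization. The notes name the builds mm9 and GRCm38 without roles, and the coordinates in the tables are those of GRCm38. No source used here gives the strand setting, the treatment of multimapping reads or molecular identifiers.

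Libraries were scaled by TMM (edgeR 4.0.16, R 4.3.3), with DESeq2 1.42.0 size factors and total reads as alternatives. With 1 library per genotype no p-value was computed. The size rule asks for 50 reads in the larger library, a 2-fold ratio and a 95% Clopper-Pearson interval that excludes 1. It was tested on simulated data that held counting noise only, with known library sizes and only changes larger than 2-fold. That simulation cannot show how the rule behaves with spread between libraries or near 2-fold. Reads are not independent molecules, so intervals and limits cover counting error only. Cells needed 10000 gene reads, and a gene was detected at 10 reads. No doublet caller was run. The members, lists and rules were chosen with earlier results of these data known. Genes named beside the members are those of each list that passed the size rule, at most 4 per comparison by absolute log2 ratio, and the nearest genes by pattern. Il4ra and Stat6 are always given, some cell type markers are named where their reads stand beside a result, and the genes named after their values were seen are said to be so.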

Additional observations from a re-analysis of the deposited data

How the results depend on the processing

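The members' calls did not change with DESeq2 size factors, total reads, or TMM over genes with 10 reads in at least 50% of cells, an alternative chosen after seeing the data. With total reads, 45 genes were lower in IL-4Ra-/- than WT, and 145 were higher and 359 lower in IL-4RaY709F than IL-4Ra-/-. With the cell-based genes these were 40, 136 and 389. Some small ratios reversed: under total reads Socs6 in IL-4Ra-/- against WT (log2 0.077) and Socs4 between the mutants (−0.090), and with the cell-based genes Socs2 (0.032) and Socs6 (0.12) in IL-4Ra-/- against WT and Socs2 (−0.0036), Socs4 (−0.12) and Socs7 (−0.012) between the mutants. At a minimum of 20 reads, 181 genes were higher and 127 lower in IL-4RaY709F, 420 and 167 in IL-4Ra-/-, and 544 lower between the mutants. At 100 reads these were 66 and 21, 58 and 48, and 87. With no minimum they were 252 and 258, 630 and 267, and between the mutants 556 higher and 871 lower. At 1.5-fold, 367 and 212, 407 and 553, and 923 and 528 genes passed. Members lower in IL-4Ra-/- were 1 at 100 reads, which leaves out Socs1 with 86, and 4 at 1.5-fold. At 1 read, members were detected in 12.5% (Socs1), 93.75% (Socs2), 23.75% (Socs4), 43.75% (Socs5), 16.25% (Socs7) and 97.5% (Cish) of cells. Thinning to 150000 reads gave 57.5% for Socs2, and the 70 cells with 500000 reads gave 91.4% for Cish. No paired analysis was possible because each genotype has 1 library and the labels give the libraries no replicate number that pairs them. Depth limits Socs6 and the WT to IL-4Ra-/- ratio of Socs1, which rests on 24 reads.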
